A study of Mus musculus with 6 samples.

Results

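The cadherin superfamily is the large set of calcium-dependent adhesion proteins built from repeated extracellular cadherin domains, and its members were followed here across wild-type, IRAK4 KO and rescued pancreatic cancer cells. Members were all protein-coding genes whose symbol begins with Cdh, Celsr, Fat, Dchs, Dsg, Dsc or Pcdh followed by a number, with the alpha, beta and gamma letters of the clustered protocadherins allowed. The rule found 76 genes among the 41388 features of each deposited table. Of these, 29 were expressed, meaning a mean of at least 1 CPM (a gene's share of a library's counts, scaled up to a fixed total) over the 6 libraries.

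The libraries were RNA-seq of KP2 cells, a pancreatic cancer line from a KPC mouse on the C57BL/6J background, kept under 10 passages from its derivation and grown in DMEM with 10% serum. There were 3 groups of 2 libraries: wild type, IRAK4 KO, made by infection with plentiCRISPR vectors carrying guides against IRAK4, and IRAK4 KO + rescue. IRAK4 is a kinase that relays the signal of interleukin-1 and Toll-like receptors inside the cell. The labels do not describe the rescue construct, whether wild-type cells carried a vector, whether the KO is a clone or a pool, or whether replicates are separate cultures, so p-values reflect only how far these libraries spread, which can be technical.

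Classical cadherins join neighbouring cells by binding the same cadherin on the other cell, and their tails bind catenins that link to actin. Desmosomal cadherins bind plakoglobin and plakophilins and link to keratin filaments. Fat, Dachsous and Celsr proteins are very large cadherins that orient cells within a sheet, and protocadherins are cadherin-repeat proteins that lack the classical catenin-binding tail. In ductal epithelium of the pancreas, E-cadherin (Cdh1) is the main adherens junction cadherin, and its loss is a hallmark of a mesenchymal state.

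Library totals ran from 7605328 to 11505983 counts. Irak4 stood at 37.9 and 37.6 normalised CPM in the wild-type pair, at 20.4 and 21.8 in the KO pair, and at 492 and 211 in the rescue. The KO change was not called (log2 fold change -0.84, edgeR adjusted p = 0.0573), so the transcript level does not check that label. The rescue libraries carried Irak4 far above wild type and at levels that differ from each other. All 6 tested epithelial markers fell in the KO, where 23.5% of all tested genes fell, among them Krt18 and Krt19 (log2 fold changes -0.89 and -0.95), with Krt18 still at 1288 and 1225 normalised CPM. Epcam, a defining epithelial marker, had 1 count in a single wild-type library and 0 elsewhere. The 8 epithelial markers summed to 6325 and 6037 normalised CPM in the wild-type pair, 3503 and 3567 in the KO pair, and 4372 and 5227 in the rescue. The 5 mesenchymal-state markers summed to 11316 and 10667 normalised CPM in the wild-type pair, 6633 and 6581 in the KO pair, and 8536 and 10839 in the rescue. Of these 5, Fn1 (-1.80) and Vim (-0.30) fell and S100a4 (0.52) rose in the KO. In the rescue against the KO, 4 rose and S100a4 fell (-0.31), beside 8.35% of all tested genes higher and 5.88% lower. Both marker sums were thus lowest in the KO pair, and what part they have in the member changes was not tested. Fewer cells of a type and less RNA per cell cannot be told apart in such bulk samples.

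Levels below are CPM scaled by TMM (normalised CPM), given for library 1 and then library 2. Levels are compared between genes only per kilobase of the gene length in the tables (normalised RPKM). Changes are log2 fold changes from edgeR's quasi-likelihood test with their standard error (SE), and a gene is called when its Benjamini-Hochberg adjusted p, taken over all 12339 tested genes, is under 0.05. Of the 76 members, 31 were tested: the 29 expressed members, Cdh15 and Pcdhb20. The other 45 had too few counts to be tested, with 15 of them at 0 counts in all libraries and no count above 9 in any library. Celsr1, Cdh15 and Dsg2 passed the filter on low counts through the wild-type libraries alone. For Pcdhb15 and Pcdhb18 the KO was the only group with both libraries past it. For Pcdhb5, Pcdhb21 and Cdh10 only the KO and the rescue had both libraries past it, and for Pcdh17 only wild type and the KO. Such members could enter the tests through the groups where they were higher. Counts over the tested members are therefore descriptions. Marker and partner genes met the same filter, so the same limit holds for those with low counts. As the deposited tables list their exons, the expressed members Fat1, Fat4, Pcdh19, Pcdhgc4, Dsg2 and Cdh24 overlap counted genes on the opposite strand, and since the strand setting is not given in the sources used here, their reads cannot be separated from those of the antisense genes.

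In the KO against wild type, 10 of 31 tested members rose and 10 fell, against a background of 46.8% of all tested genes called in either direction (23.2% higher, 23.5% lower). The median log2 fold change was 0.33 over the tested members and 0.01 over all tested genes. At a change of at least 2-fold, 6 members rose (Cdh5, Cdh10, Fat4, Pcdhb16, Pcdhb21 and Pcdhb22) and 5 fell (Celsr1, Dsg2, Cdh15, Celsr2 and Pcdh1). Over all 12339 tested genes, 457 were called higher and 943 lower at that change. The difference between the members' share and the background was not tested, so these counts do not decide whether the superfamily differs from other genes. The libraries of the groups did not overlap for 26 of the 31 members, against 76.6% of all tested genes.

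**Figure D1:**
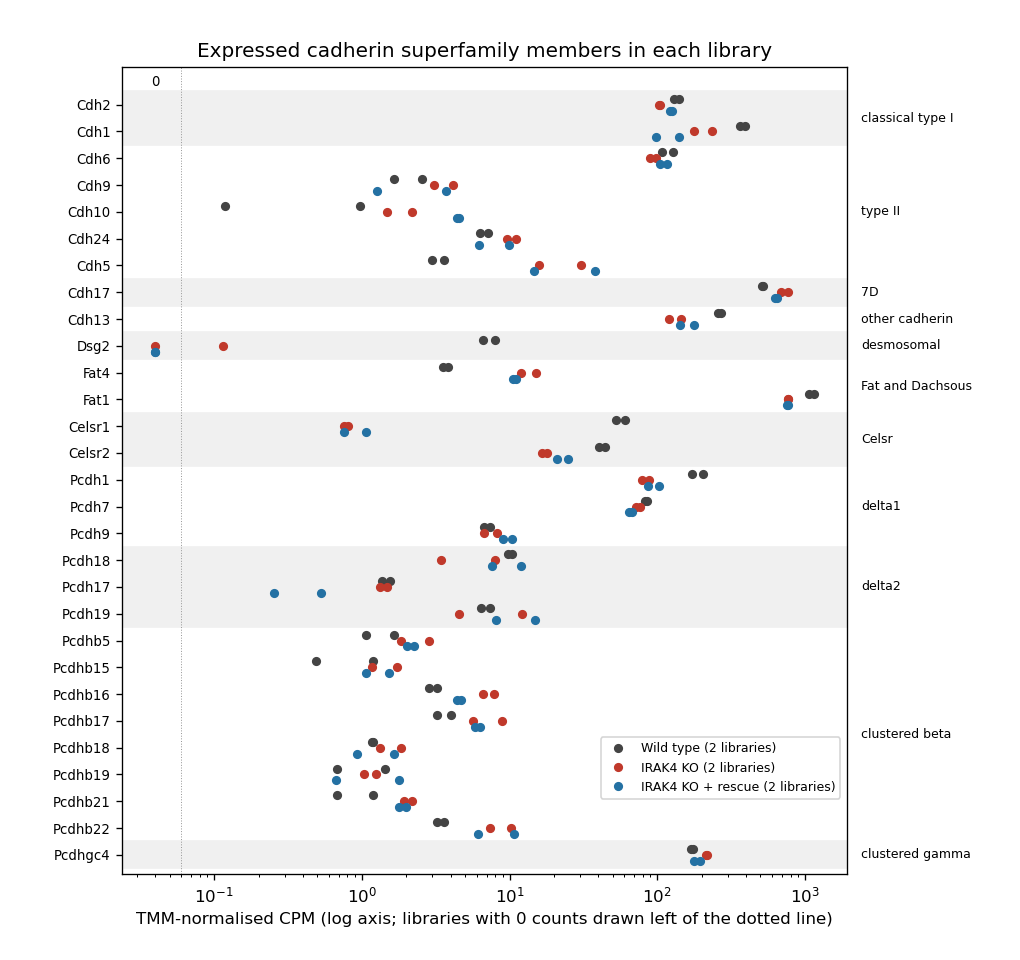
Normalised CPM of the 29 expressed members in each of the 6 libraries on a log axis, grouped by subfamily, with 1 point per library and libraries at 0 counts left of the dotted line. Celsr1 and Dsg2 sit far lower, and Cdh5 and Fat4 higher, in both KO and both rescue libraries than in wild type.

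**Figure D2:**
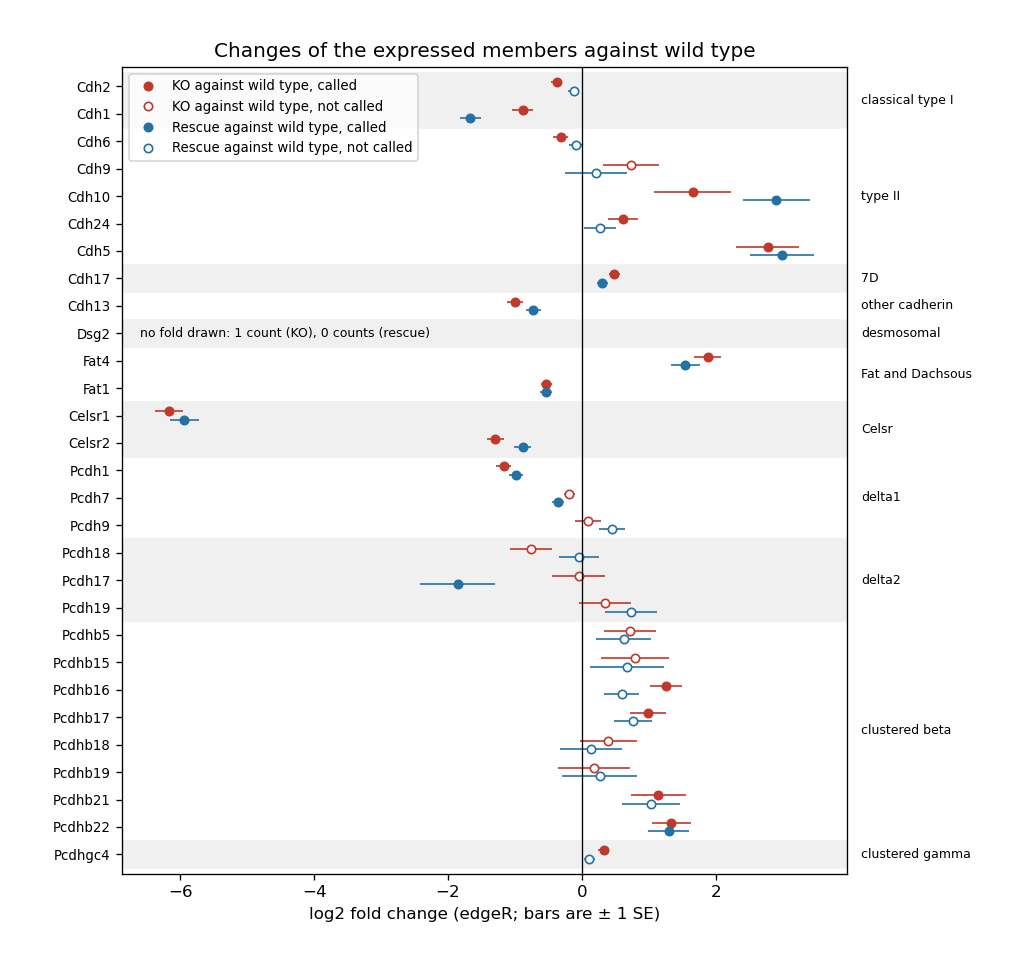
Log2 fold changes of the expressed members against wild type from edgeR, for the KO and for the rescue, with bars of 1 SE either side and filled points for called members. Celsr1 lies near -6 in both comparisons, which share the wild-type libraries, and no fold is drawn for Dsg2, which had 1 count in the KO and 0 in the rescue.

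Per kilobase, Cdh17 was the most abundant member of the superfamily, followed by Fat1, Cdh1 and Cdh6 in the mean over the libraries. Cdh17 held 26.8% and 28.2% of the summed normalised RPKM of the members in the wild-type pair, 43.4% and 43.3% in the KO pair, and 40.9% and 41.6% in the rescue. Cdh1 held 18.6% and 20.7% in the wild-type pair, 11% and 12.9% in the KO pair, and 8.64% and 6.34% in the rescue. Cdh17 thus led in all 6 libraries, and the Cdh1 share was highest in the wild-type pair and lowest in the rescue pair, with no overlap between groups. The sum itself was 426 and 415 normalised RPKM in the wild-type pair, 352 and 395 in the KO pair, and 356 and 336 in the rescue. These shares are descriptions, with no test.

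**Figure D3:**
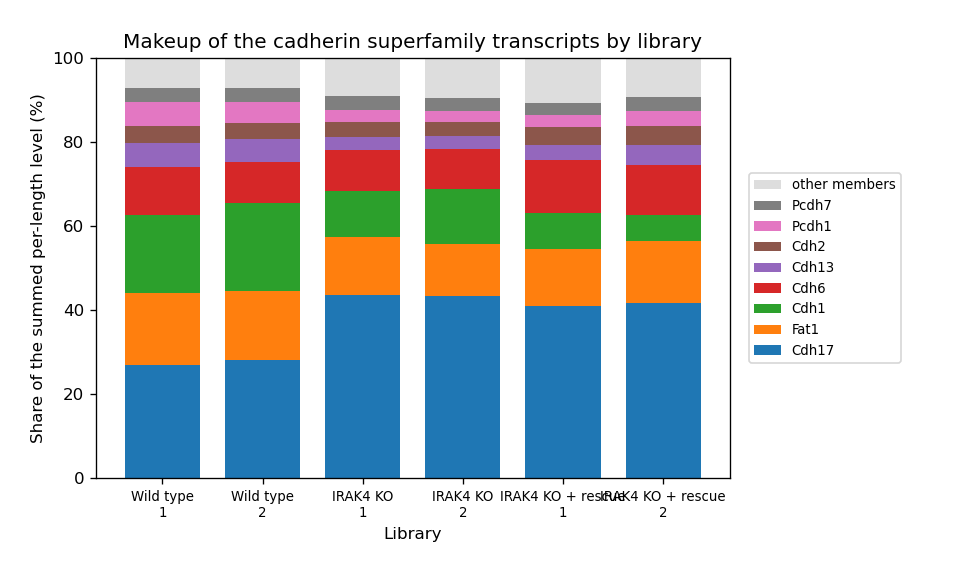
Share of the summed normalised RPKM of all members taken by the 8 most abundant members in each library, as stacked bars to 100%. The Cdh17 segment widens from 26.8% and 28.2% in wild type to over 40% in the other libraries, while the Cdh1 segment narrows.

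Of the classical type I cadherins, Cdh1 and Cdh2 were expressed, Cdh15 was tested at a low level, and Cdh3 and Cdh4 were near 0. Cdh1 (E-cadherin, ENSMUSG00000000303, GRCm38 chromosome 8, 106603351 to 106670246) stood at 363 and 393 normalised CPM in the wild-type pair, 176 and 233 in the KO pair, and 141 and 97.6 in the rescue. Every wild-type library lay above every KO library, and every KO library above both rescue libraries. Cdh1 fell in the KO (-0.89, SE 0.16, adjusted p = 7.53e-04 by edgeR). It was lower again in the rescue than in the KO (-0.78, SE 0.16, adjusted p = 0.0113 by edgeR), a call that was lost without KO library 2 (-0.57, adjusted p = 0.109 by edgeR). The rescue libraries, in which Irak4 was above wild type, thus had the least Cdh1 of the series (-1.66 against wild type, SE 0.16, adjusted p = 2.98e-05 by edgeR).

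Cdh2 (N-cadherin), the classical cadherin of neural and mesenchymal cells, stood at 141 and 129.7 normalised CPM in the wild-type pair, 104 and 103 in the KO pair, and 122 and 126 in the rescue. The KO pair lay below the other 4 libraries, and the fall in the KO was called (-0.38, SE 0.08, adjusted p = 0.00302 by edgeR), while the rescue differed from neither group by a call (0.25 against the KO, adjusted p = 0.0633; -0.12 against wild type, adjusted p = 0.319, both by edgeR). Both genes were therefore lower in the KO than in wild type. In the rescue, which had less Cdh1 than the KO, both Cdh2 libraries lay above the KO pair, a difference that was called without rescue library 1 (0.28, adjusted p = 0.0357 by edgeR). Per kilobase, Cdh1 exceeded Cdh2 by 4.54 and 5.35 times in the wild-type pair, by 2.98 and 3.98 times in the KO pair, and by 2.04 and 1.36 times in the rescue. Cdh15 (M-cadherin), known from skeletal muscle, stood at 1.54 and 1.37 normalised CPM in the wild-type pair, 0.251 and 0.115 in the KO pair, and 0.38 and 0.799 in the rescue, and fell in the KO (-2.82, SE 0.63, adjusted p = 0.0033 by edgeR; -3.51 without KO library 1, still called).

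Among the 13 type II cadherins, 5 were expressed. In the KO 3 of them rose and 1 fell, beside 23.2% of all tested genes higher and 23.5% lower. By DESeq2, 1 of them was called higher and 1 lower. Cdh5 (VE-cadherin, ENSMUSG00000031871, GRCm38 chromosome 8, 104101625 to 104144502), the adherens junction cadherin of endothelium, stood at 2.97 and 3.62 normalised CPM in the wild-type pair, 15.9 and 30.5 in the KO pair, and 37.8 and 14.6 in the rescue. All 4 KO and rescue libraries lay above both wild-type libraries, and the libraries within the KO pair and within the rescue pair were far apart. Cdh5 rose 6.83-fold in the KO (log2 fold change 2.77, SE 0.48, adjusted p = 6.63e-04 by edgeR) and was also higher in the rescue against wild type (2.98, SE 0.48, adjusted p = 0.00111 by edgeR; 2.13 without rescue library 1, still called). The other endothelial markers did not move with it: their summed level over 6 genes was 1.9 and 2.05 normalised CPM in the wild-type pair, 0.167 and 0.229 in the KO pair, and 0.254 and 0.266 in the rescue. Cldn5 was at 0 counts in every library, and Pecam1, Tek, Tie1 and Emcn had at most 2 counts in any library. Kdr, the only gene of this list that was tested, fell in the KO (-3.88, SE 0.70, adjusted p = 9.41e-04 by edgeR). Kdr passed the filter on low counts through the wild-type libraries alone, so its fall is a description.

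Cdh10, a type II cadherin known from the nervous system, stood at 0.119 and 0.977 normalised CPM in the wild-type pair, 2.17 and 1.49 in the KO pair, and 4.57 and 4.39 in the rescue. The groups did not overlap and their order was wild type, KO, rescue. Cdh10 rose in the KO (1.65, SE 0.57, adjusted p = 0.0321 by edgeR) and was higher in the rescue against wild type (2.91, SE 0.50, adjusted p = 0.00186 by edgeR), whereas the rescue against the KO was not called (1.25, SE 0.39, adjusted p = 0.0554 by edgeR). The KO call was lost with DESeq2 (1.68, adjusted p = 0.0556), without wild-type library 1 (0.93, adjusted p = 0.197 by edgeR) and without KO library 1 (1.31, adjusted p = 0.2 by edgeR), and without wild-type library 2 the KO change was 3.83 and the rescue change 5.08, both still called. Without wild-type library 1 the rescue change was 2.18, still called. The rescue was called above the KO, at 1.223 to 1.255, with no filter on low counts (adjusted p = 0.00196 by edgeR), with only those groups in the fit (adjusted p = 0.0427 by edgeR), without wild-type library 1 or 2 (adjusted p = 0.0451 and 0.0459 by edgeR) and without rescue library 1 (adjusted p = 0.0384 by edgeR). The 4 neuronal markers summed to 3.09 and 2.44 normalised CPM in the wild-type pair, 1.5 and 2.06 in the KO pair, and 1.27 and 1.6 in the rescue, which is no higher in the KO or rescue than in wild type.

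Cdh6 (K-cadherin), first known from kidney, was the most abundant type II cadherin per kilobase, at 128 and 107 normalised CPM in the wild-type pair, 89.7 and 98.6 in the KO pair, and 117 and 104 in the rescue. The KO pair lay just below the other libraries and the fall was small (-0.32, SE 0.11, adjusted p = 0.0272 by edgeR). That call was lost without wild-type library 1 (-0.19, adjusted p = 0.282 by edgeR) and without KO library 1 (-0.26, adjusted p = 0.165 by edgeR). Cdh24 stood at 6.29 and 7.13 normalised CPM in the wild-type pair, 9.61 and 11.1 in the KO pair, and 9.89 and 6.26 in the rescue. It rose in the KO (0.61, SE 0.22, adjusted p = 0.0392 by edgeR), but that call was lost without any single wild-type or KO library (0.51 to 0.71, adjusted p = 0.0741 to 0.194 by edgeR), with DESeq2 (adjusted p = 0.132) and with the replicate block (adjusted p = 0.0581 by edgeR). Cdh9 stood at 1.66 and 2.54 normalised CPM in the wild-type pair, 3.09 and 4.13 in the KO pair, and 1.27 and 3.73 in the rescue, with no call in any comparison. Cdh11, a cadherin of mesenchymal cells, had 3 to 8 counts in each library and was not tested.

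Cdh17 (liver-intestine cadherin, ENSMUSG00000028217, GRCm38 chromosome 4, 11758147 to 11817895), a cadherin with a short tail that does not bind catenins, stood at 511 and 523 normalised CPM in the wild-type pair, 683 and 765 in the KO pair, and 652 and 626 in the rescue. All KO and rescue libraries lay above wild type, and the rescue pair lay below the KO pair. Cdh17 rose 1.4-fold in the KO (0.49, SE 0.09, adjusted p = 8.7e-04 by edgeR). It was also higher in the rescue against wild type (0.31, SE 0.09, adjusted p = 0.0275 by edgeR), a call lost with the replicate block (adjusted p = 0.0561 by edgeR), without rescue library 1 (0.27, adjusted p = 0.0586 by edgeR) and without wild-type library 1 (0.29, adjusted p = 0.189 by edgeR) or 2 (0.32, adjusted p = 0.125 by edgeR). Per kilobase it exceeded Cdh1 by 1.44 and 1.36 times in the wild-type pair, by 3.96 and 3.36 times in the KO pair, and by 4.74 and 6.56 times in the rescue. Cdh16, its closest relative in the rule, had 2 counts in rescue library 2 and 0 in the other 5 libraries.

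Cdh13 (T-cadherin), which lacks a cytoplasmic tail, is held to the membrane by a lipid anchor and binds adiponectin, stood at 271 and 257 normalised CPM in the wild-type pair, 119 and 146 in the KO pair, and 142 and 178 in the rescue. Wild type lay above all 4 other libraries, and the KO and rescue ranges overlapped. Cdh13 fell in the KO (-0.998, SE 0.12, adjusted p = 6.35e-05 by edgeR) and was lower in the rescue against wild type (-0.72, SE 0.12, adjusted p = 0.00132 by edgeR). Cdh23 had 1 to 4 counts in each library, and Cdh26 was at 0 counts throughout.

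Of the 9 desmosomal cadherins, Dsg2, the desmoglein of simple epithelia, was the only expressed member. Dsg2 (ENSMUSG00000044393) had 56 and 81 counts in the wild-type pair, 0 and 1 in the KO pair, and 0 in both rescue libraries. Only wild type therefore held the transcript above the level of single counts. The pooled KO level was 151.9-fold lower than wild type, with a 95% interval of 26.8 to 6045 that covers counting error only, and the rescue level was at least 37.7-fold lower, taking 3 counts over the group as the most that 0 counts allow. The Dsg2 fall was called in both comparisons (adjusted p = 1.14e-05 for the KO and 3.08e-05 for the rescue, both by edgeR). No desmocollin was expressed: Dsc1 and Dsc3 were at 0 counts in every library and Dsc2 had 1 count in KO library 1 and 0 elsewhere. Thus the KO and rescue libraries held no desmosomal cadherin transcript at this depth beyond isolated counts.

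Of the 8 tested desmosome plaque genes, 3 fell in the KO and 0 rose, beside 23.5% of all tested genes lower and 23.2% higher. The median log2 fold change was -0.26. DESeq2 called 2 of them lower and 0 higher, and 0 were higher at an unadjusted p under 0.05 by edgeR. Pkp1, a plakophilin that clusters desmosomal cadherins, stood at 48.0 and 40.5 normalised CPM in the wild-type pair, 6.27 and 5.84 in the KO pair, and 6.59 and 15.6 in the rescue. It fell in the KO (-2.86, SE 0.26, adjusted p = 1.17e-05 by edgeR), with no overlap between wild type and the other 4 libraries. Pkp2, the plakophilin of simple epithelia, stood at 108 and 101 normalised CPM in the wild-type pair, 58.8 and 57.2 in the KO pair, and 72.8 and 113 in the rescue, and fell in the KO (-0.84, SE 0.16, adjusted p = 0.00111 by edgeR). Ppl (periplakin) also fell (-0.31, SE 0.10, adjusted p = 0.0271 by edgeR). Dsp, the desmoplakin that ties the plaque to keratin, was not called (-0.11, adjusted p = 0.506 by edgeR) and stood at 185 to 259 normalised CPM in every library. Plaque genes were thus still present in libraries in which the desmosomal cadherins were near 0.

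Fat1 and Fat4 were the expressed members of the 5 Fat and Dachsous genes, and they changed in opposite directions. Fat1, a giant cadherin that acts on actin dynamics and Hippo signalling, stood at 1146 and 1063 normalised CPM in the wild-type pair, 767 and 763 in the KO pair, and 750.5 and 771 in the rescue. Wild type lay above the other 4 libraries, which lay close together. Fat1 fell in the KO (-0.53, SE 0.08, adjusted p = 3.76e-04 by edgeR), and the rescue was near the KO (-0.01, SE 0.08, adjusted p = 0.962 by edgeR). Fat2 had 9 and 7 counts in the wild-type pair, 1 and 0 in the KO pair, and 0 and 1 in the rescue, was not tested, and was 17.7-fold lower in the KO with a 95% counting interval of 2.76 to 744. Dchs1, the ligand of Fat4, had 1 count in rescue library 1 and 0 in the other 5 libraries. Dchs2 was not analysed here.

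Fat4 (ENSMUSG00000046743, GRCm38 chromosome 3, 38886940 to 39011985), the receptor for Dchs1, stood at 3.56 and 3.81 normalised CPM in the wild-type pair, 15.1 and 11.9 in the KO pair, and 10.5 and 11.1 in the rescue. All 4 KO and rescue libraries lay above wild type. Fat4 rose 3.68-fold in the KO (1.88, SE 0.20, adjusted p = 3.2e-05 by edgeR) and was higher in the rescue against wild type (1.54, SE 0.22, adjusted p = 4.44e-04 by edgeR). Its promoter is shown because it had the largest rise among the members with an entry in the RefSeq table, and because IRAK4 signals towards NF-kB, the factor that binds kB sites: the 250 bases before its start at GRCm38.p6 chr3:38886690-38886939, plus strand, 5′ to 3′. Capitals mark the match to the kB consensus, which begins 199 bases before the start, and no E-box (CAGGTG or CACCTG, the 2 strands of 1 motif) was found.
Fat4 promoter: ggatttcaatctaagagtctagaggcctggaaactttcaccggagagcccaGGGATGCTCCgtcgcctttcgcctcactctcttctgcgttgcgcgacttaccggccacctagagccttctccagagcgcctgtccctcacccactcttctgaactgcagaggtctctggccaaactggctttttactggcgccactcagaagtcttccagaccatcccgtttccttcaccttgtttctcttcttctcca
On both strands, the kB consensus was found in 7.25% of the 32851 windows of this length in the RefSeq table. A match describes the letters of the window and is no evidence of binding.

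Of 7 tested partners of Fat and Dachsous, 2 rose and 3 fell in the KO, beside 46.8% of all tested genes called. The median was 0.10. By DESeq2, 0 of them were called higher and 3 lower. Frmd6, a FERM-domain regulator of Hippo signalling, stood at 114 and 105 normalised CPM in the wild-type pair, 42.0 and 38.0 in the KO pair, and 56.1 and 86.4 in the rescue, and fell in the KO (-1.45, SE 0.16, adjusted p = 3.5e-05 by edgeR). It was higher in the rescue than in the KO (0.83, SE 0.16, adjusted p = 0.00966 by edgeR). Lix1l fell as well (-0.62, adjusted p = 2.03e-04 by edgeR), as did Wwc1 (-0.25, adjusted p = 0.0209 by edgeR), while Mpdz rose (0.34, adjusted p = 0.00969 by edgeR).

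Both expressed Celsr genes fell in the KO, where 23.5% of all tested genes fell. Celsr1 (ENSMUSG00000016028, GRCm38 chromosome 15, 85898758 to 86033777), an adhesion receptor of the planar polarity pathway, stood at 60.6 and 52.8 normalised CPM in the wild-type pair, 0.752 and 0.802 in the KO pair, and 0.761 and 1.07 in the rescue. Wild type was far above all 4 other libraries, which overlapped each other. Celsr1 was 71.9-fold lower in the KO (log2 fold change -6.17, SE 0.20, adjusted p = 1.04e-08 by edgeR) and remained near that level in the rescue (0.23 against the KO, SE 0.45, adjusted p = 0.799 by edgeR). The KO level rests on 9 and 7 counts and the rescue level on 6 and 8, beside 510 and 540 in wild type, so the size of the fold is uncertain. Celsr3 had 7 and 6 counts in the wild-type pair and 2 or 3 in each other library and was not tested.

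Celsr2 (ENSMUSG00000068740), its paralogue in the same pathway, stood at 44.2 and 40.3 normalised CPM in the wild-type pair, 16.5 and 18 in the KO pair, and 20.9 and 24.8 in the rescue. The groups did not overlap, and the rescue lay between the other groups. Celsr2 fell in the KO (-1.30, SE 0.12, adjusted p = 1.43e-05 by edgeR) and was lower in the rescue against wild type (-0.88, SE 0.12, adjusted p = 4.54e-04 by edgeR), while the rescue against the KO was not called (0.41, SE 0.13, adjusted p = 0.0616 by edgeR). Its promoter is shown as the fallen member whose RefSeq window held 2 E-boxes, the motif that Snail and Zeb repressors bind: GRCm38.p6 chr3:108415580-108415829, minus strand, 5′ to 3′, with the E-boxes in capitals, beginning 172 and 30 bases before the start.
Celsr2 promoter: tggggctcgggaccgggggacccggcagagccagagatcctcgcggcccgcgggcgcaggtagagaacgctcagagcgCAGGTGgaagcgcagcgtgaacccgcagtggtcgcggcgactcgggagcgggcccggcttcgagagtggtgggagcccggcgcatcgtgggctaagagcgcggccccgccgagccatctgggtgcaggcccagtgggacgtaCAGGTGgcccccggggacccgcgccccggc
An E-box was found in 17.2% of the 32851 windows. Of the 76 members, 28 had an entry in the table, 12 of them expressed. Among these 12, the window of Fat1, which fell, held 1 E-box, and the windows of the fallen Cdh6 and of the risen Cdh10 and Cdh24 held neither an E-box nor a kB match. The windows of the uncalled members held neither motif. The RefSeq start lay 14761 bases from the start of the counted gene for Fat1, 1382 for Cdh10 and 49186 for Cdh9. For Pcdh9 it lay 1937 or 1947 bases away. The windows of these members therefore need not be the promoters of the counted genes. Both promoters printed here hold a match, while most windows did not, and no relation between motif and direction can be read from them.

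Of 11 tested core planar polarity genes, 2 rose and 2 fell in the KO, beside 46.8% of all tested genes called, with a median of 0.13. Ptk7, a pseudokinase co-receptor of the pathway, stood at 4.99 and 6.84 normalised CPM in the wild-type pair, 0.585 and 0.458 in the KO pair, and 0.634 and 3.33 in the rescue, and fell in the KO (-3.46, SE 0.56, adjusted p = 4.29e-04 by edgeR). Dvl2, a cytoplasmic Dishevelled protein, stood at 41.3 and 39.7 normalised CPM in the wild-type pair, 72.7 and 76.7 in the KO pair, and 68.4 and 59.9 in the rescue, and rose (0.88, SE 0.10, adjusted p = 3.47e-05 by edgeR). Dvl1 rose (0.25, adjusted p = 0.0237 by edgeR) and Prickle3 fell (-0.51, adjusted p = 0.0378 by edgeR). The other 7 planar polarity genes tested were not called. By DESeq2, 1 of the 11 was called higher and 1 lower. For Ptk7, wild type was the only group with both libraries past the filter on low counts.

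Of the non-clustered protocadherins, 3 of 4 delta1 and 3 of 5 delta2 genes were expressed. Pcdh1, a protocadherin of epithelia, stood at 203 and 173 normalised CPM in the wild-type pair, 79.4 and 87.3 in the KO pair, and 86.7 and 103 in the rescue. Wild type lay above all other libraries, and KO and rescue overlapped. Pcdh1 fell in the KO (-1.17, SE 0.11, adjusted p = 1.18e-05 by edgeR) and was lower in the rescue against wild type (-0.99, SE 0.11, adjusted p = 8.22e-05 by edgeR). Pcdh7 stood at 85.1 and 83.2 normalised CPM in the wild-type pair, 71.6 and 76.1 in the KO pair, and 64.5 and 67.3 in the rescue. It was not called in the KO (-0.19, adjusted p = 0.0848 by edgeR), except without rescue library 1 (-0.20, adjusted p = 0.0476 by edgeR) or with only those groups in the fit (adjusted p = 0.0478 by edgeR), and was lower in the rescue against wild type (-0.35, SE 0.09, adjusted p = 0.0132 by edgeR), which was lost without wild-type library 1 (-0.34, adjusted p = 0.109 by edgeR) or 2 (-0.37, adjusted p = 0.0714 by edgeR). Pcdh9 stood at 6.76 to 10.4 normalised CPM over the 6 libraries with no call.

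Among the delta2 genes, Pcdh17 stood at 1.54 and 1.37 normalised CPM in the wild-type pair, 1.34 and 1.49 in the KO pair, and 0.254 and 0.533 in the rescue. Only the rescue pair was low. Pcdh17 was lower in the rescue against the KO at the edge of the threshold (-1.81, SE 0.55, adjusted p = 0.0494 by edgeR) and against wild type (-1.86, SE 0.56, adjusted p = 0.0337 by edgeR). The first of these calls was lost without any single library of the series (-1.37 to -2.41, adjusted p = 0.0887 to 0.167 by edgeR). The call against wild type was lost with DESeq2 (adjusted p = 0.174), with the replicate block (adjusted p = 0.0587 by edgeR), without rescue library 1 (-1.43, adjusted p = 0.184 by edgeR) and without wild-type library 1 (-1.78, adjusted p = 0.159 by edgeR) or 2 (-1.95, adjusted p = 0.11 by edgeR), and stood at -2.45, still called, without rescue library 2. Pcdh18 stood at 9.74 and 10.4 normalised CPM in the wild-type pair, 7.94 and 3.44 in the KO pair, and 7.61 and 12 in the rescue. The KO change was not called (-0.77, SE 0.31, adjusted p = 0.0633 by edgeR) and was called without KO library 1 (-1.56, adjusted p = 0.00591 by edgeR), without rescue library 1 (-0.76, adjusted p = 0.00732 by edgeR) and without rescue library 2 (-0.76, adjusted p = 0.00971 by edgeR), and likewise with no filter (adjusted p = 8.06e-04 by edgeR) and with only those groups in the fit (adjusted p = 0.00905 by edgeR). Pcdh19, whose protein associates with N-cadherin, stood at 7.36 and 6.45 normalised CPM in the wild-type pair, 12.2 and 4.58 in the KO pair, and 8.12 and 14.9 in the rescue. The wild-type pair lay inside the KO range and below the rescue pair. Pcdh19 was not called in any comparison, but the rescue was called above wild type without rescue library 1 (1.11, adjusted p = 0.011 by edgeR) and with no filter (0.735, adjusted p = 0.00263 by edgeR).

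The clustered protocadherins are stochastically chosen cell-surface labels of neurons, encoded in tandem gene arrays. The gamma cluster was counted as a single feature named Pcdhgc4, whose 26094 bases of exon cover 9 of the gamma genes of the GENCODE M21 annotation together with the shared constant exons, so its count is that of a cluster and not of Pcdhgc4. It stood at 174 and 170.0 normalised CPM in the wild-type pair, 214 and 218 in the KO pair, and 195 and 177 in the rescue. The KO pair lay above the other 4 libraries, and the rise was called (0.33, SE 0.08, adjusted p = 0.0064 by edgeR), though not without wild-type library 2 (0.31, adjusted p = 0.0609 by edgeR). The alpha cluster, counted likewise under Pcdha11, had at most 3 counts in any library. The other 33 alpha and gamma genes of the annotation were not analysed separately here.

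Of the 22 beta genes, which each have a single exon, 9 were tested, and in the KO 4 rose and 0 fell (0 at an unadjusted p under 0.05 and 0 by DESeq2, which called 3 higher), beside 23.2% of all tested genes higher and 46.8% called in either direction. Summed over the 22 genes, the level was 19.2 and 15.8 normalised CPM in the wild-type pair, 29.1 and 38.7 in the KO pair, and 33.2 and 25.6 in the rescue. Both KO and both rescue libraries lay above wild type. The median log2 fold change of the 9 tested genes in the KO was 0.79, and 6 of the 8 expressed beta genes lay above both wild-type libraries in each KO library, against 76.6% of all tested genes whose groups did not overlap in either direction. Pcdhb5, Pcdhb15, Pcdhb18 and Pcdhb21 passed the filter on low counts with both libraries past it only outside wild type. The median and counts over the tested beta genes can lean towards a rise through that filter, and are descriptions. The beta genes are near-identical in places and reads shared between them may be lost or split, so the values of single beta genes are uncertain.

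Pcdhb22 stood at 3.21 and 3.62 normalised CPM in the wild-type pair, 7.35 and 10.2 in the KO pair, and 10.7 and 6.13 in the rescue, and rose in the KO (1.33, SE 0.29, adjusted p = 0.0031 by edgeR). Pcdhb16 stood at 3.21 and 2.83 in the wild-type pair, 6.6 and 7.91 in the KO pair, and 4.69 and 4.39 in the rescue, in normalised CPM, and rose in the KO (1.26, SE 0.23, adjusted p = 0.00108 by edgeR). In Pcdhb16 the groups did not overlap and the rescue lay between the others, whereas in Pcdhb22 the rescue libraries spanned the KO range. Pcdhb17 stood at 4.04 and 3.22 normalised CPM in the wild-type pair, 5.68 and 8.94 in the KO pair, and 6.34 and 5.86 in the rescue, and rose in the KO (0.99, SE 0.27, adjusted p = 0.0103 by edgeR), a call lost without KO library 2 (0.65, adjusted p = 0.107 by edgeR) or wild-type library 2 (0.83, adjusted p = 0.0941 by edgeR). Pcdhb21 stood at 1.19 and 0.684 normalised CPM in the wild-type pair, 1.92 and 2.18 in the KO pair, and 1.77 and 2.0 in the rescue. Its call in the KO (1.14, SE 0.41, adjusted p = 0.0373 by edgeR) was lost without any single wild-type or KO library (0.77 to 1.56, adjusted p = 0.0559 to 0.263 by edgeR), with DESeq2 (adjusted p = 0.204) and with the replicate block (adjusted p = 0.061 by edgeR). Pcdhb22 was also higher in the rescue against wild type (1.29, SE 0.31, adjusted p = 0.0109 by edgeR), which was lost without rescue library 1 (0.83, adjusted p = 0.074 by edgeR) and without wild-type library 1 (1.22, adjusted p = 0.0946 by edgeR) or 2 (1.39, adjusted p = 0.0644 by edgeR). With no filter, Pcdhb17 was also called higher in the rescue against wild type (0.757, adjusted p = 0.0217 by edgeR) and Pcdhb16 lower in the rescue against the KO (-0.669, adjusted p = 0.0443 by edgeR). Pcdhb5, Pcdhb15, Pcdhb18, Pcdhb19 and Pcdhb20 were not called in any comparison.

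**Figure D4:**
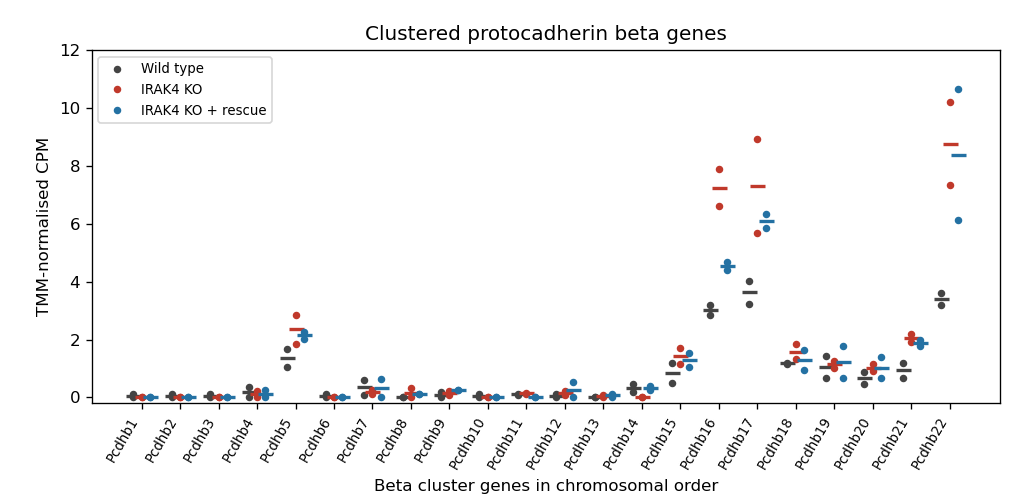
Normalised CPM of the 22 clustered beta genes in chromosomal order, with 1 point per library and a bar at each group mean. Genes from Pcdhb1 to Pcdhb14 sit near 0 apart from Pcdhb5, and Pcdhb16, Pcdhb17 and Pcdhb22 show the highest levels, with KO libraries above wild type.

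Of the 11 genes listed for the architecture of protocadherin clusters, among them the cohesin subunits and the insulator factor CTCF, 4 rose and 1 fell in the KO, a share near the 46.8% of all tested genes called, with a median of 0.13. Ctcf stood at 74.2 and 78.5 normalised CPM in the wild-type pair, 125 and 123 in the KO pair, and 110 and 81.9 in the rescue, and rose in the KO (0.70, SE 0.12, adjusted p = 6.33e-04 by edgeR). Smaller rises were called for Smc1a (0.34), Smchd1 (0.36) and Stag1 (0.41), with adjusted p of 0.004, 0.00473 and 0.0072 by edgeR. The gene that fell was Stag2, a cohesin subunit (-0.29, adjusted p = 0.0138 by edgeR).

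Among the intracellular partners of classical cadherins, 7 catenin genes were tested, of which 2 rose and 3 fell in the KO, beside 46.8% of all tested genes called, with a median of -0.11. Ctnnb1 (beta-catenin) stood at 1038 and 1128 normalised CPM in the wild-type pair, 1383 and 1456 in the KO pair, and 1159 and 1069 in the rescue, and rose in the KO (0.39, SE 0.09, adjusted p = 0.00401 by edgeR) while Cdh1 and Cdh2 fell. The rescue was lower than the KO (-0.35, SE 0.09, adjusted p = 0.0265 by edgeR). Vcl (vinculin), which joins the junction to actin under tension, stood at 522 and 473 normalised CPM in the wild-type pair, 374 and 342 in the KO pair, and 431 and 537 in the rescue, and fell in the KO (-0.47, SE 0.11, adjusted p = 0.00414 by edgeR). Ctnnal1, an alpha-catenin-like gene, fell (-0.78, adjusted p = 0.00289 by edgeR), and Ctnna2, a neuronal alpha-catenin at 0.195 to 2.29 normalised CPM, rose (2.61, SE 0.63, adjusted p = 0.00507 by edgeR). The main alpha-catenin gene Ctnna1 was not called (-0.11, adjusted p = 0.32 by edgeR).

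Nectins are immunoglobulin-family adhesion proteins that assist cadherin junctions through afadin. Of 4 tested genes, 1 rose and 2 fell in the KO, beside 46.8% of all tested genes called, with a median of 0.03. By DESeq2, 0 of them were called higher and 2 lower. Nectin2 stood at 71.4 and 70.4 normalised CPM in the wild-type pair, 25.7 and 23.4 in the KO pair, and 37.8 and 44.2 in the rescue. It fell in the KO (-1.52, SE 0.11, adjusted p = 1.64e-06 by edgeR), was higher in the rescue than in the KO (0.73, SE 0.11, adjusted p = 0.00317 by edgeR), and its 3 groups did not overlap. Afdn (afadin) fell (-0.35, adjusted p = 0.00776 by edgeR) and Nectin3 rose (0.40, adjusted p = 0.0443 by edgeR). Among genes of cadherin shedding and turnover, Mmp3, a matrix protease at no more than 1.95 normalised CPM, fell (-3.01, adjusted p = 0.00759 by edgeR). Adam10, the main sheddase of E-cadherin, was not called in the KO (-0.06, adjusted p = 0.579 by edgeR).

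Of 7 tested transcriptional repressors of Cdh1, 4 fell and 0 rose in the KO, beside 23.5% of all tested genes lower and 23.2% higher. The median was -0.32. DESeq2 called 3 of them lower and 0 higher, and 0 were higher at an unadjusted p under 0.05 by edgeR. Snai1 stood at 8.19 and 6.35 normalised CPM in the wild-type pair, 2.59 and 1.83 in the KO pair, and 3.3 and 5.33 in the rescue, and fell (-1.67, SE 0.30, adjusted p = 8.02e-04 by edgeR). Zeb1 stood at 126 and 121 normalised CPM in the wild-type pair, 79.2 and 70.1 in the KO pair, and 82.8 and 98.8 in the rescue, and fell (-0.72, SE 0.10, adjusted p = 1.92e-04 by edgeR). In both genes the wild-type pair lay above all other libraries. Tcf4 and Zeb2 fell by less (-0.45 and -0.32, adjusted p = 8.54e-04 and 0.0154 by edgeR), and Twist1 was at 0 counts in every library.

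Of 8 tested activators of Cdh1 and of the epithelial state, 5 fell and 0 rose in the KO. Over all tested genes, 23.5% were lower and 23.2% higher. The median was -0.49. DESeq2 called 4 of the activators lower and 0 higher, and 0 were higher at an unadjusted p under 0.05 by edgeR. Elf3, an epithelial ETS factor, stood at 35.6 and 34.1 normalised CPM in the wild-type pair, 15.6 and 16.2 in the KO pair, and 11.9 and 14.8 in the rescue, and fell (-1.13, SE 0.13, adjusted p = 4.47e-05 by edgeR). Klf5 fell (-0.54, adjusted p = 0.00136 by edgeR), as did Klf4 (-0.82, adjusted p = 0.0038 by edgeR) and Esrp2, an epithelial splicing factor (-0.53, adjusted p = 0.00716 by edgeR). Grhl2 had no more than 1.5 normalised CPM in any library and was not called.

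**Figure D5:**
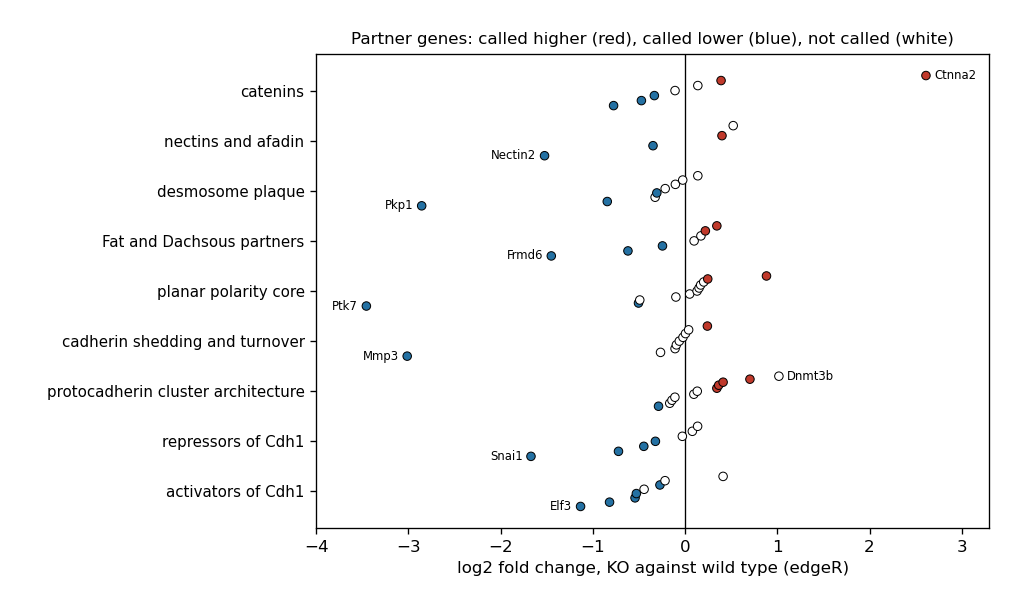
Log2 fold change of each tested partner gene in the KO against wild type from edgeR, 1 point per gene in 9 lists, red where called higher, blue where called lower and white where not called. Genes with an absolute change above 1 are named, among them Pkp1, Ptk7 and Mmp3 on the lower side and Ctnna2 on the higher side.

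In the rescue against the KO, 0 of 31 tested members rose (6 at an unadjusted p under 0.05 by edgeR, 0 by DESeq2) and 2 fell, Cdh1 and Pcdh17, against a background of 14.2% of all tested genes called (8.35% higher, 5.88% lower). The median over the members was -0.04, and over all tested genes it was 0.00. The groups did not overlap for 13 members, against 59.4% of all tested genes. Without rescue library 1, log2 rises were 0.28 for Cdh2, 1.22 for Cdh10, 0.43 for Cdh13, 0.53 for Celsr2, 0.30 for Pcdh1 and 1.01 for Pcdh18. In the same fit Cdh1 was lower by 1.06, Cdh24 by 0.71 and Pcdhgc4 by 0.28. That fit left 1 rescue library, and more genes were called in both directions over all genes as well. Without rescue library 2, Cdh5 rose (0.74, adjusted p = 0.0367 by edgeR), and without KO library 2 no member was called in either direction.

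In the rescue against wild type, 5 of 31 tested members rose (Cdh5, Cdh10, Cdh17, Fat4 and Pcdhb22) and 9 fell (Cdh1, Cdh13, Dsg2, Fat1, Celsr1, Celsr2, Pcdh1, Pcdh7 and Pcdh17), against a background of 22.2% of all tested genes called (10.2% higher, 12% lower). The groups did not overlap for 23 members, against 61.6% of all tested genes. Celsr1 was at -5.94 (SE 0.21, adjusted p = 1.94e-08 by edgeR) beside -6.17 in the KO. Fat1 was at -0.54 (SE 0.08, adjusted p = 9.31e-04 by edgeR) beside -0.53 in the KO. The KO and rescue comparisons share the wild-type libraries, so that values set side by side are not independent.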

How the data were processed

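RNA-seq of 6 KP2 libraries was analysed in 3 groups of 2, taken from the sample titles. Per the submitters' processing notes, the tools named are bcl2fastq, STAR 2.0.4b, Subread and featureCounts 1.45 with the build GRCm38; which annotation release and strand setting were used is not given in the sources used here. Columns for the read count, CPM and RPKM of every gene stand in each table, per the file headers. The deposited CPM was the count over the table's total (largest difference 3.3e-11), and the deposited RPKM that CPM per kilobase of the listed length (largest difference 4.7e-11). Tests used the deposited counts alone, and the CPM and RPKM of the authors were not used further. GENCODE M21 named 40254 of 41388 identifiers, and gene coordinates are those of the deposited tables.

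Genes passing edgeR's filterByExpr (minimum count 10, minimum total 15) numbered 12339, and 29049 fell below the filter. After TMM scaling, edgeR 4.0.16 in R 4.3.3 fitted a quasi-likelihood model to all 6 libraries with 3 residual degrees of freedom. The SE is the log2 fold change over the square root of F. On counts simulated for the KO against wild type over 12339 genes, the test recovered 58.2% of changes of 1.5-fold, 85.1% at 2-fold and 97% at 4-fold. The simulation changed only 67, 67 and 66 genes at these folds. It kept the rescue at wild-type means and gave all groups the same spread trend. These settings differ from the data, so the rates may not carry over. Replicates differed by more than sampling noise in each group (chi-square per degree of freedom 3.53 to 8.22). Intervals are exact conditional 95% intervals of pooled counts.

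The members, subfamilies and lists were chosen with earlier results of these data known. Every expressed member is named, with untested or unexpressed members named where called or illustrative, and up to 4 called genes of smallest adjusted p per partner list; Dsp, Stag2, Ctnna1, Adam10, Twist1 and Grhl2, the cell markers and the low-count members were named after their values were seen. Alternatives tried were RLE and upper-quartile scaling, no filter and a stricter filter, DESeq2 1.42.0, a fit to the compared groups alone, a test against a 1.5-fold change, a replicate block and leaving out each library. Promoter windows come from RefSeq (GRCm38.p6). The calls of 1 gene of the shedding and turnover list are not reported here.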

Additional observations from a re-analysis of the deposited data

How the results depend on the processing

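With RLE or upper-quartile scaling and with the stricter filter, the numbers of members called were the same as in the main fit in all 3 comparisons, and the median log2 fold change of all genes lay between -0.011 and 0.033 under every scaling. No member changed direction under any alternative other than leaving out a library. Tested against a 1.5-fold change in place of no change, the members called higher and lower were 4 and 6 in the KO against wild type, 0 and 0 in the rescue against the KO, and 3 and 4 in the rescue against wild type; over all genes they were 479 and 927, 24 and 14, and 198 and 353. In the rescue against the KO, 2 members were called higher with no filter and 1 with only the compared groups in the fit; 1 was called lower with only the compared groups, with DESeq2 and with the replicate block. All genes called there were 679 higher and 400 lower with only the compared groups, and 378 lower with DESeq2; DESeq2 called 751 genes higher in the rescue against wild type.

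The deviations of same-numbered libraries from their group means had correlations of 0.03, -0.17 and -0.20. With 2 libraries a group, the deviations in a pair mirror each other, so these values cannot decide whether equal numbers pair samples. The labels state no pairing. With the replicate block, members called higher and lower were 8 and 10 in the KO against wild type, 0 and 1 in the rescue against the KO, and 4 and 8 in the rescue against wild type, and 429 genes were lower in the rescue against the KO (main fit 726).

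Leaving out each library in turn, members called higher and lower ran from 6 to 10 and 9 to 12 in the KO against wild type, from 0 to 6 and 0 to 3 in the rescue against the KO, and from 3 to 5 and 7 to 9 in the rescue against wild type. All genes called ran from 1687 to 3296 higher and 1953 to 3366 lower, from 174 to 1878 and 71 to 1604, and from 411 to 1713 and 649 to 1971. The members that changed direction were all uncalled in the comparison concerned. In the KO against wild type, the log2 fold change without each library ran from -0.30 to 0.75 for Pcdhb19, from -0.074 to 0.21 for Pcdh9, from -0.14 to 0.038 for Pcdh17 and from -0.59 to 0.82 for Pcdh19. In the rescue against KO, the log2 fold change without each library ran from -0.023 to 0.46 for Celsr1, from -0.027 to 0.013 for Fat1, from -0.40 to 0.15 for Pcdhb15, from -0.55 to 0.10 for Pcdhb17, from -0.73 to 0.086 for Pcdhb18, from -0.79 to 0.61 for Pcdhb19, from -0.49 to 0.30 for Pcdhb22, from -0.41 to 0.22 for Pcdhb5, from -0.12 to 1.32 for Pcdh19, from -3.14 to 0 for Dsg2, from -0.62 to 0.74 for Cdh5 and from -1.48 to 0.073 for Cdh9. In the rescue against wild type, the log2 fold change without each library ran from -0.34 to 0.48 for Pcdhb18, from -0.61 to 0.84 for Pcdhb19, from -0.40 to 0.24 for Pcdh18, from -0.11 to 0.55 for Cdh24, from -0.21 to 0.048 for Cdh6 and from -0.75 to 0.79 for Cdh9.

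Low counts limit what can be said of the 45 untested members, of Cdh10 in wild type (1 and 10 counts), Cdh15 in the KO (3 and 1) and Pcdh17 in the rescue (2 and 4), and of Pcdhb5, Pcdhb15 and Pcdhb18 to Pcdhb21, each under 10 counts in at least 1 library. The same holds for Celsr1 in the KO (9 and 7 counts) and in the rescue (6 and 8). With 2 libraries a group and an unstated strand setting, single calls near the threshold rest on few values.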

Other observations

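The nearest tested protein-coding genes on either side of Celsr1, Cdh1, Fat4, Cdh5, Dsg2 and Pcdh1 gave the following values in the KO against wild type. These members were picked by hand: Cdh15, Cdh10, Celsr2, Pcdhb22 and Pcdhb16, left out here, changed by more than Cdh1 and Pcdh1. Neighbours can lie far apart, as do Cdh2, which ends at 16809246, and Dsg2, which starts at 20558074. Of the tested genes next to Celsr1, Gramd4 fell (289 against 133 normalised CPM, log2 fold change -1.12, SE 0.10, edgeR adjusted p = 1.09e-05) and Cerk, the ceramide kinase gene, fell (39.5 against 18.6 normalised CPM, -1.09, SE 0.14, edgeR adjusted p = 8.53e-05), while on the other side Trmu was not called (-0.03, edgeR adjusted p = 0.916) and Gtse1 rose (43.3 against 68.1 normalised CPM, 0.66, SE 0.12, edgeR adjusted p = 9.33e-04). Next to Cdh1, Smpd3, a sphingomyelinase gene, fell (91.7 against 36.3 normalised CPM, -1.34, SE 0.09, edgeR adjusted p = 1.47e-06), whereas Zfp90 (0.42, edgeR adjusted p = 0.197), Tango6 (0.23, edgeR adjusted p = 0.0856) and Has3 (0.01, edgeR adjusted p = 0.984) were not called. Next to Fat4, which rose, Ankrd50 fell (729 against 373 normalised CPM, -0.96, SE 0.09, edgeR adjusted p = 1.2e-05), as did Hspa4l (-0.60, edgeR adjusted p = 2.93e-04), and Gm5148 (-0.13, edgeR adjusted p = 0.711) and Intu (-0.27, edgeR adjusted p = 0.194) were not called. Next to Cdh5, which rose, Tk2 (-0.19) and Cklf (-0.18) on the higher-coordinate side were not called, with edgeR adjusted p of 0.312 and 0.497. On the other side of Cdh5, Got2 (0.46, edgeR adjusted p = 0.0015) and Slc38a7 (0.46, edgeR adjusted p = 0.00174) rose; the interval from Got2, which ends at 95888547, to the start of Cdh5 holds no tested protein-coding gene. Next to Dsg2, Cdh2 fell by 0.38 on the log2 scale, and B4galt6 (0.01, edgeR adjusted p = 0.966), Trappc8 (0.21, edgeR adjusted p = 0.071) and Kctd1 (0.26, edgeR adjusted p = 0.286) were not called. Next to Pcdh1, Dele1 rose (0.38, edgeR adjusted p = 0.00691) and Rnf14 fell (-0.29, edgeR adjusted p = 0.0168), and Fchsd1 (-0.27, edgeR adjusted p = 0.145) and Rell2 (-0.64, edgeR adjusted p = 0.296) were not called.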
